A study of Homo sapiens with 32 samples.

Results

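Divergent start-site pairs were taken from a table of capped RNA 5′ ends in BicR and LNCaP cells. A pair joins a row on the minus strand to the nearest row on the plus strand of the same chromosome whose position lies 1 to 1000 bp higher, so that transcription runs away from the space between them. The rule uses positions only and found 1501 pairs. They hold 2931 of the table's 13294 rows (22.05%), 1501 on the minus strand and 1430 on the plus strand. Of the plus rows, 67 were shared by 2 minus rows and 2 by 3, so some pairs have a row in common, and 1430 pairs were mutually nearest.

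Many mammalian promoters start transcription in both directions from neighbouring core promoters inside a single nucleosome-free region. One direction often gives a stable mRNA, and the other gives either a second gene's mRNA or a short, unstable upstream RNA. Distal enhancers bound by factors such as the androgen receptor, the steroid-activated transcription factor that drives luminal prostate cells, also fire in both directions. Whether the strands of such a pair respond alike is a question that CAGE can address, because a tag is taken to mark the capped 5′ end of an RNA and keeps its strand.

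BicR and LNCaP are human prostate cancer cell lines. LNCaP responds to androgen, and the labels leave the name BicR unexplained. Both were kept for 3 days in phenol red-free medium with charcoal/dextran-treated serum, which removes steroids. Each line then received 10 nM dihydrotestosterone (DHT, a natural androgen), DHT with 1 µM bicalutamide (an androgen receptor antagonist), bicalutamide alone, or ethanol as vehicle. Every line and treatment was sampled with 1 library each at 6 h and 24 h, and 1 untreated library per line brought the total to 18. A separate LNCaP time course with the synthetic androgen R1881 gave 2 libraries at each of 0, 3, 6, 12, 18, 48 and 72 h. Its dose is given as 1 nM in the sample labels and as 10 nM in the shared protocol, and it has no vehicle library after 0 h.

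The 18 libraries held 4139807 to 7753336 tags, and 3 tags correspond to 0.326 to 0.601 RPM (deposited tags scaled to a common library size). The pairs held 23.3 to 25.4% of the tags of a library. A BicR library stood apart, that of DHT plus bicalutamide at 6 h. Its log2 levels correlated with those of the other BicR libraries at 0.821 to 0.866, whereas those correlated with each other at 0.949 to 0.989. With the LNCaP libraries its correlation was 0.827 to 0.912, which reaches above its highest value within BicR. Whether this library was mixed or mislabelled was not tested. It enters no comparison below directly but adds to the spread in the fit, so counts without it stand beside the results they move. The 14 libraries of the R1881 time course held 128463 to 3837493 tags. No row is tied to a gene, so the lines could not be checked against marker genes, and sites are given by their hg19 chromosome, position and strand.

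Within the 1000 bp that the rule allows, most divergent pairs lay at short distances. Their distance had a median of 208 bp, with quartiles of 127 and 335 bp, and 1030 pairs (68.6%) lay within 300 bp. In steps of 50 bp, the fullest held 277 pairs between 100 and 150 bp, while the pairs up to 50 bp apart numbered 21. The 869 neighbouring rows on the same strand were farther apart, with a median of 386 bp and 33.8% within 300 bp. Of those, 0 lay up to 50 bp apart and 10 lay 51 to 100 bp apart. In the R1881 time course, rows of divergent pairs had a median cluster width of 159 bp. How far cluster width sets the same-strand distances was not tested. The 214 convergent neighbours (a plus row followed by a minus row) had a median of 266 bp. The 1000 bp limit cut a thin tail, since 20 pairs lay within the last 100 bp and 15 more in the 100 bp beyond it. The longest distance inside was 999 bp and the shortest outside was 1010 bp.

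**Figure D1:**
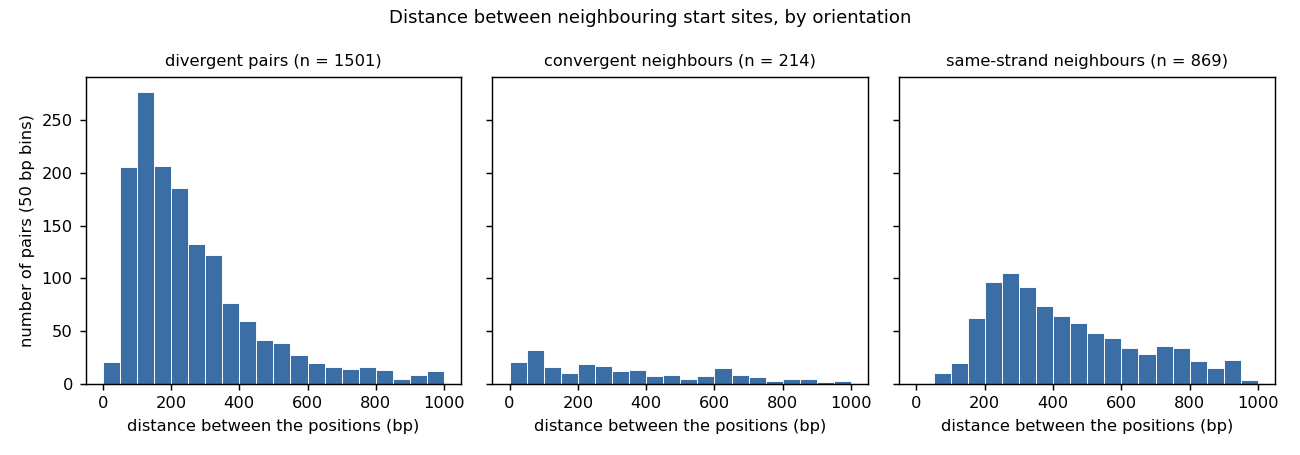
Number of neighbouring row pairs in 50 bp bins of the distance between their positions, for 1501 divergent pairs, 214 convergent neighbours and 869 same-strand neighbours. The divergent pairs peak between 100 and 150 bp and thin out towards 1000 bp, with a median of 208 bp against 386 bp for same-strand neighbours.

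Pairs occurred on every nuclear chromosome and on the mitochondrial genome. The X chromosome had a low share of rows in pairs, 9.38% of its 384 rows. Of the mitochondrial rows 53.1% belonged to the 15 mitochondrial pairs, where a compact circular genome is transcribed on both strands in long units. Whether mitochondrial tags mark capped ends or starts of transcription was not tested, so those pairs are start-site pairs by the rule only. In the R1881 table, which gives each site a start and end, 659 pairs were found by name with both rows. Their clusters were a median of 27 bp apart, and 252 of the 659 overlapped, so tags of both strands can arise from the same bases.

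Levels of the strands of a pair usually differed. The median level over the 18 libraries was 23.6 RPM for rows in pairs and 21.7 RPM for rows in no divergent pair. Within a pair the higher row had a median of 44.3 RPM and the lower row 13.2 RPM. The higher row exceeded the lower 2.65-fold at the median, with quartiles of 1.55 and 5.81. The plus row was the higher one in 769 pairs and the minus row in 732. The rows were less than 2-fold apart in 579 pairs (38.6%), more than 10-fold apart in 210 (13.99%) and more than 100-fold apart in 14. Every row of the table reached 10.0 RPM in at least 1 library, so a strand that stayed below that level has no row, and pairs with a weak partner are missing from these counts. A row below that level in 1 line or treatment is present only through other libraries, which bears on the size of the changes below. Among the 998 pairs with both rows at a mean of 10 RPM or more, the median ratio was 2.33. Same-strand neighbours had a median ratio of 2.68 and convergent neighbours 2.27, so levels were unequal in those too.

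The pair with the highest summed level, and with the largest excess of the plus row, lay in the mitochondrial genome at 2072 (minus) and 2204 (plus). Its plus row ranged from 8505 to 17632 RPM over the 9 BicR libraries (median 9542) and from 9762 to 15188 RPM over the 9 LNCaP libraries (median 11281). Its minus row ranged from 10.4 to 22.9 RPM in BicR (median 19.0) and from 8.94 to 21.1 RPM in LNCaP (median 16.7). The mean levels differed 686-fold, and the ranges of the lines overlapped on both strands.

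Outside the mitochondrial genome the highest summed level belonged to a pair on chromosome 11 at 809500 (minus) and 809967 (plus), chosen after its values were known. The plus row ranged from 2789 to 3896 RPM in BicR and from 3210 to 4620 RPM in LNCaP. The minus row ranged from 8.11 to 11.6 RPM in BicR and from 6.38 to 9.77 RPM in LNCaP. The minus row, 467 bp away, thus stayed near the lower limit of the table in all 18 libraries.

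On chromosome 7 the imbalance ran the other way. The minus row at 26240365 ranged from 842 to 1034 RPM in BicR and from 611 to 1082 RPM in LNCaP. The plus row at 26241064 ranged from 8.71 to 17.2 RPM in BicR and from 6.68 to 16.3 RPM in LNCaP. This 74.5-fold difference was the largest excess of a minus row among pairs with both rows at 10 RPM or more. The most balanced pair, picked after the values were seen, lay 52 bp apart on chromosome 10 at 43633840 (minus) and 43633892 (plus). Both of its rows averaged 11.4 RPM.

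**Figure D2:**
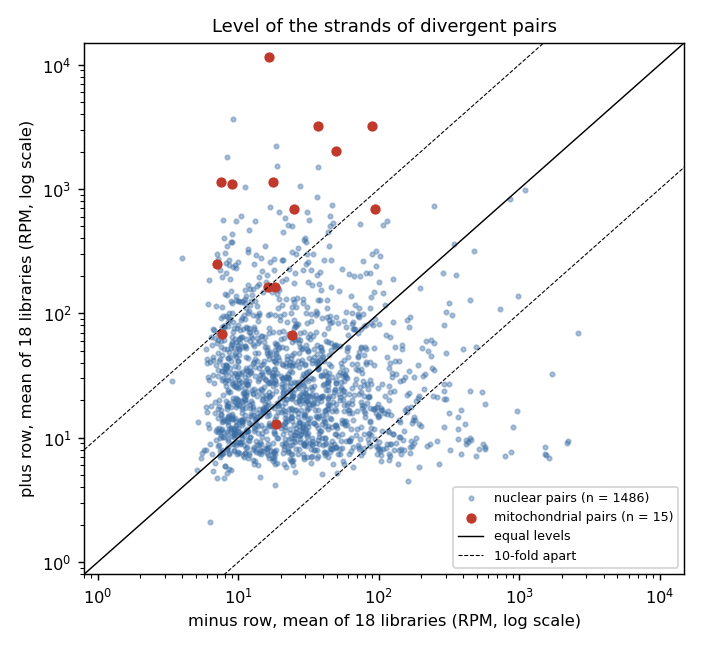
Mean level over 18 libraries of the minus row (x axis, RPM, log scale) and the plus row (y axis, RPM, log scale) of each divergent pair, with mitochondrial pairs in red. Points spread to both sides of the line of equal levels, 210 of 1501 pairs lie more than 10-fold from it, and the mitochondrial pairs but 1 have the higher plus row.

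The balance between the strands varied little across libraries. Over the 998 pairs with both rows at 10 RPM or more, the log2 ratio of plus over minus had a median SD of 0.25 among the 9 BicR libraries and 0.22 among the 9 LNCaP libraries. Between pairs its SD was 1.96. The same strand was the higher one in all 18 libraries in 756 of these pairs (75.8%). No pair had 1 strand higher in all BicR libraries and the other strand higher in all LNCaP libraries. Without the BicR library that stood apart there were 3 such pairs, all with rows less than 2-fold apart in level. The clearest of them to the tests below was on chromosome 22 at 47158424 (minus) and 47158556 (plus). With ethanol its minus row had 37.2 RPM at 6 h and 39.8 RPM at 24 h in BicR, against 26.5 and 23.3 RPM in LNCaP. Plus-strand levels were 25.1 and 30.4 RPM in BicR, against 35.1 and 33.7 RPM in LNCaP. The strands were called unequal between the lines there (plus minus minus on the log2 scale -0.94, SE 0.222, adjusted p = 0.0213). Since the pair was picked for a switch of its strands between these same libraries, the call restates that choice. Without 1 ethanol library the minus row's log2 difference ran from 0.50 to 0.91 and the plus row's from -0.43 to -0.06.

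DHT in BicR called both rows of some pairs and 1 row of others. In the fit, 6 h and 24 h libraries stood in for replicates, so p-values measure only the spread between these libraries. A row is called where edgeR's adjusted p over all rows is below 0.05. DHT against ethanol in BicR called 71 rows of pairs, 43 higher and 28 lower, which is 2.42% of the rows in pairs beside 3.38% of all rows (2.21% higher, 1.17% lower). In these bulk libraries a change in the share of cells that use a site and a change in RNA per cell cannot be told apart. Both rows were called higher in 8 pairs and lower in 5, and no pair had rows called in opposite directions. Of 869 same-strand neighbours both rows were called higher in 15 and lower in 5, and of 214 convergent neighbours in 3 and 0. None of those had opposite calls either. In 45 divergent pairs 1 row alone was called, the plus row in 28 of them. In these 45 the called row had a median size of 0.88 on the log2 scale, and the other row moved 0.34 in the same direction at the median, with the same sign in 39. The called row was the weaker row of its pair in 11 of the 45. Leaving out 1 of the 4 compared libraries, which leaves 1 library in its group, lowered the count of called rows in every case. Without the library that stood apart the count was 119 (4.06% beside 5.72% of all rows).

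Among pairs called on both strands, with a mean of at least 10 RPM on each strand in DHT or in ethanol, the largest shared rise (mean of the rows' log2 changes) lay on chromosome 20 at 56285070 (minus) and 56285236 (plus), 166 bp apart. In BicR its minus row had 79.1 RPM at 6 h and 53.7 RPM at 24 h of DHT, against 8.06 and 12.9 RPM with ethanol. Its plus row had 19.2 and 12.5 RPM with DHT, against 3.51 and 6.16 RPM with ethanol. The libraries did not overlap on either strand, and the log2 changes were 2.61 for the minus row (SE 0.427, adjusted p = 0.00523) and 1.66 for the plus row (SE 0.306, adjusted p = 0.0108).

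The strands of that pair were not called unequal (difference -0.94, SE 0.690, adjusted p = 0.773). In LNCaP the minus row had 49.5 and 32.3 RPM with DHT, against 11.6 and 12.9 RPM with ethanol, and the plus row 12.6 and 9.16 RPM, against 7.12 and 7.71 RPM. These changes did not pass (adjusted p = 0.273 and 0.971). Bicalutamide alone gave 47.9 and 22.7 RPM on the minus strand in BicR and 13.7 and 10.6 RPM in LNCaP. Without BicR DHT at 6 h the minus and plus rows no longer passed (adjusted p = 0.0522 and 0.144), nor without BicR ethanol at 6 h (0.0663 and 0.107).

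The largest shared fall lay on chromosome 9 at 107509896 (minus) and 107510017 (plus). In BicR the strong plus row had 104 and 54.1 RPM with DHT, against 151 and 258 RPM with ethanol. The weak minus row had 0.871 and 2.36 RPM with DHT, from 6 and 17 tags, against 7.54 and 13.4 RPM with ethanol. The log2 changes were -1.49 for the plus row (SE 0.355, adjusted p = 0.0406) and -2.71 for the minus row (SE 0.391, adjusted p = 0.00273). Libraries did not overlap on either strand. LNCaP had 227 and 161 RPM on the plus strand with DHT, against 248 and 302 RPM with ethanol, which did not pass (adjusted p = 0.982). The plus row's call was lost without BicR DHT at 6 h or 24 h or ethanol at 24 h (adjusted p = 0.105, 0.335 and 0.299).

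None of the 13 pairs called on both strands was called unequal, but their strands' estimates differed in size. Plus minus minus ran from -2.17 to 0.71 on the log2 scale in the 8 higher pairs and from -0.88 to 1.23 in the 5 lower pairs. The higher pairs lay 105 to 411 bp apart, with log2 changes of 0.68 to 3.15 on the minus strand and 0.70 to 1.95 on the plus strand. All 8 had both rows above 0 in LNCaP too. The 5 lower pairs lay 121 to 580 bp apart, with changes of -2.71 to -0.87 on the minus strand and -2.15 to -0.84 on the plus strand, and 4 of them had both rows below 0 in LNCaP.

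Unequal change of the strands under DHT in BicR was called in 5 of 1501 divergent pairs. Over all 2584 neighbouring pairs of any orientation the share was 0.619%, with 6 same-strand and 5 convergent neighbours called. The test compares the rows' log2 changes directly, with adjustment over all 2584. In each of the 5 pairs 1 row was called and the other was not. In 3 of them the plus row had the higher change, and in 2 the minus row. Refits without 1 of the 4 compared libraries, which leave 1 library in its group, kept none of the 5 calls throughout. Most of the 5 were lost in every such refit. Without the library that stood apart 9 pairs were called, beside 0.969% of all neighbouring pairs.

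The largest difference was on chromosome 6 at 10694837 (minus) and 10694916 (plus), 79 bp apart. In BicR the plus row had 26.7 RPM (184 tags) at 6 h and 11.5 RPM (83 tags) at 24 h of DHT, against 1.04 RPM (8 tags) and 0.669 RPM (5 tags) with ethanol. The minus row had 22.8 and 24.6 RPM with DHT, against 15.3 and 15.1 RPM with ethanol. A nearly silent plus strand thus reached the level of its partner at 6 h. This row reached 10.0 RPM only in BicR libraries with DHT, so it has its place in the table through them. The log2 changes were 4.53 for the plus row (SE 0.673, adjusted p = 0.00318) and 0.61 for the minus row (SE 0.237, adjusted p = 0.230), a difference of 3.92 (SE 0.704, adjusted p = 0.0113).

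In LNCaP that plus row stayed low, at 1.74 and 1.24 RPM with DHT against 0.297 and 0.758 RPM with ethanol (log2 1.42, SE 0.892, adjusted p = 0.982). The difference between the lines in this unequal change was 2.52 (SE 1.10) and did not pass (adjusted p = 0.988). With bicalutamide added to DHT in BicR the plus row had 12.0 RPM at 6 h, in the library that stood apart, and 2.90 RPM at 24 h. With bicalutamide alone in BicR it had 9.74 and 0.814 RPM. In the LNCaP time course the same row had 0 and 3 tags at 0 h, and 48.9 and 34.1 RPM (32 and 127 tags) at 48 h of R1881, a log2 change of 6.02 (SE 0.890, adjusted p = 0.00488). Without any 1 of the 4 compared BicR libraries the strands were no longer called unequal (adjusted p = 0.0647 to 0.412), and without ethanol at 6 h the plus row's own call was lost (adjusted p = 0.0664).

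A pair on chromosome 4 at 1205651 (minus) and 1205919 (plus), 268 bp apart, also split. Its plus row had 19.6 and 15.8 RPM with DHT in BicR, against 1.43 and 1.87 RPM with ethanol. With ethanol it stayed below 10.0 RPM in both lines, so other libraries gave it its place in the table. Its minus row had 31.7 and 24.6 RPM with DHT, against 29.1 and 32.9 RPM with ethanol, so those libraries overlapped. The log2 changes were 3.40 for the plus row (SE 0.569, adjusted p = 0.00582) and -0.18 for the minus row (SE 0.187, adjusted p = 0.737), a difference of 3.58 (SE 0.605, adjusted p = 0.0097).

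In LNCaP the estimates had the same signs. Plus-strand levels were 10.2 and 22.8 RPM with DHT, against 2.08 and 2.02 RPM with ethanol, and the minus row 35.1 and 25.2 RPM, against 40.5 and 35.6 RPM. The difference between strands was 3.30 in LNCaP (SE 0.583) and did not pass (adjusted p = 0.0814). Between the lines the unequal change differed by 0.28 (SE 0.901, adjusted p = 0.988). In BicR the unequal call was lost without any 1 of the 4 compared libraries (adjusted p = 0.0936 to 0.188), and the plus row's call without DHT at 6 h or either ethanol library (adjusted p = 0.0515 to 0.0655).

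**Figure D3:**
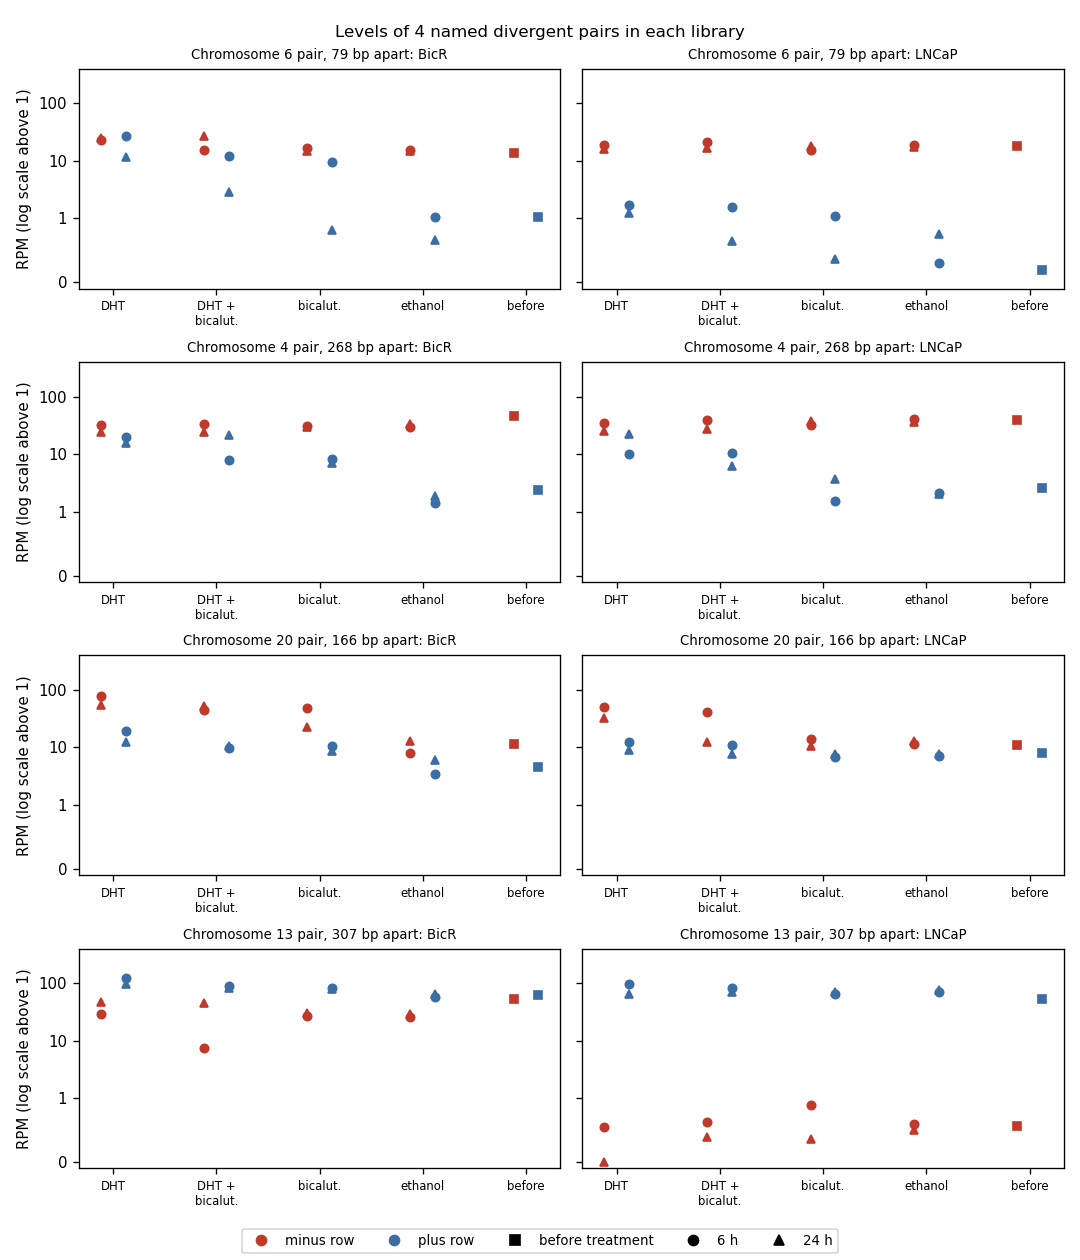
Level of the minus row (red) and plus row (blue) in each library of BicR (left) and LNCaP (right) for 4 named pairs, in RPM on a scale that is logarithmic above 1, with 6 h as circles, 24 h as triangles and the library before treatment as a square. The plus rows on chromosomes 6 and 4 are high with DHT in BicR while their minus rows differ less, both rows on chromosome 20 are high with DHT in BicR, and the minus row on chromosome 13 is present in BicR and near 0 in LNCaP.

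The other 3 pairs were on chromosomes 3, 11 and 16. On chromosome 3 the plus row at 167453510 had 2.32 and 2.64 RPM with DHT in BicR, against 7.93 and 10.7 RPM with ethanol (log2 -1.93, SE 0.427, adjusted p = 0.0290). Its minus row at 167452679, 831 bp away, had 77.8 and 109 RPM with DHT, against 87.8 and 100.8 RPM with ethanol (log2 -0.06, SE 0.129). The weak strand fell while the strong strand overlapped between treatments.

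On chromosome 11 the plus row at 134094564 had 59.1 and 61.4 RPM with DHT, against 33.3 and 37.6 RPM with ethanol. The minus row at 134093860 had 43.6 and 22.6 RPM with DHT, against 42.9 and 35.2 RPM with ethanol. The plus row rose by 0.74 on the log2 scale (SE 0.139, adjusted p = 0.0119). On chromosome 16 it was the minus row at 81040489 that rose, to 93.8 and 96.6 RPM with DHT, against 42.1 and 40.8 RPM with ethanol (log2 1.17, SE 0.160, adjusted p = 0.0024). The plus row at 81040852 had 53.9 and 41.6 RPM with DHT, against 46.3 and 40.4 RPM with ethanol. The strands of the pairs on chromosomes 3, 11 and 16 each had an adjusted p of 0.0269 for unequal change, and only the pair on chromosome 3 kept its call in a refit, that without ethanol at 6 h (adjusted p = 0.0478). The plus row on chromosome 3 lost its call in the other 3 refits (adjusted p = 0.145 to 0.239), that on chromosome 11 in all 4 (0.0624 to 0.128), and the minus row on chromosome 16 in none.

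DHT in LNCaP called no row of a divergent pair with edgeR, beside 0.128% of all rows. At an unadjusted p under 0.05 there were 128 rows of pairs (4.37%), beside 5.54% of all rows. DESeq2 called 7 rows, all higher (0.239% beside 0.406% of all rows). In edgeR without the BicR library that stood apart 7 rows passed (0.239% beside 0.469% of all rows). The smallest adjusted p among rows of pairs was 0.0631. No pair was called unequal, with 66 at an unadjusted p under 0.05. By contrast, limma on the strand ratio called 1, beside 0.116% of neighbouring pairs.

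Rows called in BicR mostly had the same sign in LNCaP, whose libraries are separate. Of the 43 rows called higher in BicR, 41 were above 0 with DHT in LNCaP, with a median log2 change of 0.46. Of the 28 called lower, 24 were below 0, with a median of -0.31. Among all rows called in BicR the counts were 278 of 294 (median 0.56) and 143 of 156 (median -0.33), so rows of pairs did as other called rows did. The median log2 change over all 2931 rows of pairs in LNCaP was -0.01.

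The difference between the DHT responses of the lines was tested directly. No row of a pair was called in edgeR, beside 0% of all rows, with 129 rows of pairs (4.40%) at an unadjusted p under 0.05, beside 5.67% of all rows. DESeq2 called 2 rows of pairs (0.0682% beside 0.0301% of all rows). No pair was called unequal in this contrast, with 69 at an unadjusted p under 0.05.

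Across pairs, the log2 changes of the strands were related more closely in BicR than in LNCaP. Pearson's r over the 1501 pairs was 0.45 in BicR and 0.25 in LNCaP, and 903 pairs (60.2%) in BicR had rows of the same sign, against 822 (54.8%) in LNCaP. Same-strand neighbours had an r of 0.67 in BicR and 0.51 in LNCaP, and convergent neighbours 0.45 in BicR and 0.40 in LNCaP. Both rows of a pair come from the same libraries and share their depth, and some pairs share a row, so these values are a description. The values had no order by distance. In BicR r was 0.38 over the 227 pairs up to 100 bp apart, 0.59 over the 484 pairs between 100 and 200 bp, and 0.33 over the 170 pairs more than 500 bp apart.

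**Figure D4:**
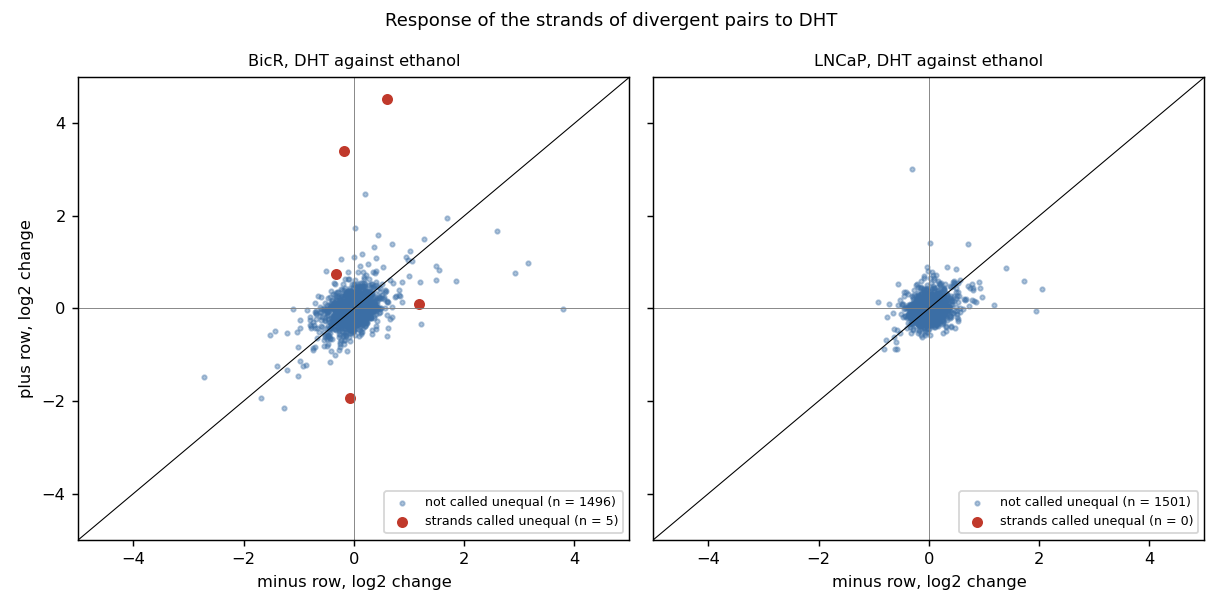
Log2 change with DHT against ethanol of the minus row (x axis) and plus row (y axis) of 1501 divergent pairs in BicR (left) and LNCaP (right), with pairs called unequal in red. The 5 red pairs in BicR lie away from the diagonal of equal change, and the largest plus-strand change is 4.53.

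The comparison of BicR with LNCaP called rows in more pairs than DHT did, and mostly 1 row of a pair. With ethanol, 279 rows of pairs were called between BicR and LNCaP, 9.52% beside 11.0% of all rows. Of these 194 were higher in BicR and 85 lower, whereas over all rows 680 (5.12%) were higher and 782 (5.88%) lower. The median log2 difference was 0.06 over rows of pairs and -0.01 over all rows. Both rows were called higher in BicR in 13 pairs and lower in 7. Among 869 same-strand neighbours these counts were 12 and 23, and among 214 convergent neighbours 1 and 5. Opposite directions were called in 1 divergent pair, beside 1 same-strand and 0 convergent. In 244 divergent pairs 1 row alone was called, beside 129 same-strand and 33 convergent neighbours. In these 244 the called row had a median size of 0.73 and the other row 0.12 in the same direction, with the same sign in 173, and 64 of the 244 were called unequal. The called row was the weaker of its pair in 128. Without BicR ethanol at 6 h or 24 h the count of rows was 77 or 194, and without LNCaP ethanol at 6 h or 24 h it was 59 or 57. With the mean of the 4 treatments in place of ethanol, 1334 rows of pairs were called beside 46.6% of all rows, and 577 pairs were unequal beside 35.6% of neighbouring pairs.

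On some chromosomes the calls ran mostly one way. On chromosome 2, 34 of 38 called rows of pairs were higher in BicR, with a median log2 difference of 0.31 over all its rows of pairs and 0.25 over all its rows. On chromosome 9, 31 of 32 were higher, with medians of 0.33 and 0.25. On chromosome 15, 11 of 12 were lower, with medians of -0.23 and -0.36. The medians over all rows of these chromosomes had the same signs, so the lean was not particular to rows of pairs.

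The largest rise on both strands belonged to a pair on chromosome 6 at 27775706 (minus) and 27775950 (plus). With ethanol the plus row had 836 and 925 RPM in BicR, against 420 and 250.5 RPM in LNCaP. The minus row had 165 and 167 RPM in BicR, against 85.4 and 56.4 RPM in LNCaP. The log2 differences were 1.56 (SE 0.264, adjusted p = 0.00427) for the plus row and 1.35 (SE 0.199, adjusted p = 0.00203) for the minus row, and no libraries overlapped. Without LNCaP ethanol at 6 h the plus row had an adjusted p of 0.0525.

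That pair was 1 of 10 in a stretch of chromosome 6 from 26 to 28 Mb, and 9 of these were taken as a group after the values were seen. The pair left out, at 26250862 (minus) and 26251841 (plus), had 0 tags in both BicR ethanol libraries and estimates of -4.03 and -4.86 between the lines, opposite to the group and not called. The stretch is known for the major cluster of histone genes, whose transcripts are made mostly while DNA is copied, though no row here is tied to a gene. Within each of the 9 pairs the rows lay 194 to 251 bp apart. The estimates of their 18 rows lay above 0 in BicR with ethanol, a direction that the choice of pairs bears on, at 0.46 to 1.64 on the log2 scale, and 14 rows were called. Of the 13 pairs called higher on both strands, 5 were in this group. In the same stretch 35 rows in no divergent pair had a median difference of 0.51, with 12 called higher and 1 lower.

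With DHT the 18 rows of the 9 pairs had estimates below 0 in BicR, from -0.67 to -0.19, and none passed (smallest adjusted p = 0.0523). This comparison shares its ethanol libraries with that between the lines. With DHT in LNCaP the estimates ran from -0.45 to 0.16. In the R1881 time course 14 of the 16 rows tested had estimates below 0 at 48 h, with a median of -2.27, and none was called without the replicate number in the fit (smallest adjusted p = 0.0523), against 11 with it.

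The largest fall on both strands lay on chromosome 2 at 188461618 (minus) and 188462036 (plus). The minus row had 9.88 and 14.7 RPM in BicR with ethanol, against 65.0 and 82.8 RPM in LNCaP. On the plus strand there were 5.59 and 6.43 RPM in BicR, against 28.2 and 40.3 RPM in LNCaP. The log2 differences were -2.51 (SE 0.364, adjusted p = 0.0019) and -2.43 (SE 0.353, adjusted p = 0.00194), so both strands were lower in BicR. Their difference was 0.08 (SE 0.625, adjusted p = 0.965). In the BicR library that stood apart these rows had 25.7 and 11.4 RPM, higher than in any other BicR library.

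Unequal change between the lines was called in 76 of 1501 divergent pairs. The share over all 2584 neighbouring pairs was 4.06%, with 20 of 869 same-strand and 9 of 214 convergent neighbours called. Whether the orientations differ was not tested. The plus row had the higher change in 41 of the 76 and the minus row in 35, and the estimates of the rows had opposite signs in 56. The difference between the rows had a median size of 1.01 and ran from 0.52 to 5.93. These 76 pairs had a median distance of 228.5 bp, beside 208 bp for all. Without 1 of the ethanol libraries, which leaves 1 library in its group, the count was lower in every case. Limma on the strand ratio called 52, beside 3.21% of all neighbouring pairs.

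The largest such difference was on chromosome 13 at 80055109 (minus) and 80055416 (plus), 307 bp apart. With ethanol the minus row had 25.5 and 28.8 RPM in BicR (196 and 215 tags), against 0.593 and 0.506 RPM in LNCaP (4 tags each). On the plus strand there were 56.5 and 64.4 RPM in BicR, against 71.0 and 75.1 RPM in LNCaP. A start site active in both lines thus had a divergent partner in BicR that was nearly absent in LNCaP. That partner reached 10.0 RPM only in BicR libraries, so it has its place in the table through the line in which it is high. The log2 differences were 5.72 for the minus row (SE 0.734, adjusted p = 0.00116) and -0.21 for the plus row (SE 0.165, adjusted p = 0.447). The unequal change of -5.93 (SE 0.742, adjusted p = 0.000471) no longer passed without LNCaP ethanol at 6 h or 24 h (adjusted p = 0.124 and 0.0554), and the minus row's call was lost without LNCaP ethanol at 6 h (adjusted p = 0.107).

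Values of the other 14 libraries on chromosome 13 are a description only, since the minus row is in the table through BicR libraries. Over the remaining BicR libraries the minus row had 7.42 to 52.7 RPM, the lowest in the library that stood apart. Over the remaining LNCaP libraries it had 0 to 0.886 RPM. Under DHT in BicR the plus row had 122 and 95.8 RPM, a log2 change of 0.81 against ethanol (SE 0.164, adjusted p = 0.0176), while the minus row had 28.8 and 46.9 RPM (log2 0.40, SE 0.411, adjusted p = 0.738).

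The largest excess of a plus row was on chromosome 15 at 40987293 (minus) and 40987371 (plus). The plus row had 8.45 and 4.82 RPM in BicR with ethanol, against 3.11 and 3.79 RPM in LNCaP, and it did not pass (adjusted p = 0.167). The minus row had 9.10 and 10.4 RPM in BicR, against 16.3 and 21.0 RPM in LNCaP (log2 -0.86, SE 0.168, adjusted p = 0.00842). The unequal change of 1.79 (SE 0.391, adjusted p = 0.014) was lost without any 1 of the 4 ethanol libraries (adjusted p = 0.0627 to 0.185). The minus row's call was lost without BicR ethanol at 6 h or LNCaP ethanol at 24 h (adjusted p = 0.0801 and 0.104).

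The single divergent pair with rows called in opposite directions was on chromosome 16 at 30107558 (minus) and 30107744 (plus). The minus row had 21.2 and 29.6 RPM in BicR with ethanol, against 39.1 and 38.9 RPM in LNCaP (log2 -0.57, SE 0.153, adjusted p = 0.0345). Plus-strand levels were 10.1 and 12.9 RPM in BicR, against 6.67 and 5.56 RPM in LNCaP (log2 0.97, SE 0.198, adjusted p = 0.0105). Libraries did not overlap on either strand, and the minus row remained the higher one in both lines. The unequal change of 1.54 (SE 0.241, adjusted p = 0.00195) had an adjusted p of 0.0819 without LNCaP ethanol at 24 h. Neither row kept its call without LNCaP ethanol at 6 h or 24 h or BicR ethanol at 6 h (adjusted p = 0.0603 to 0.299).

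**Figure D5:**
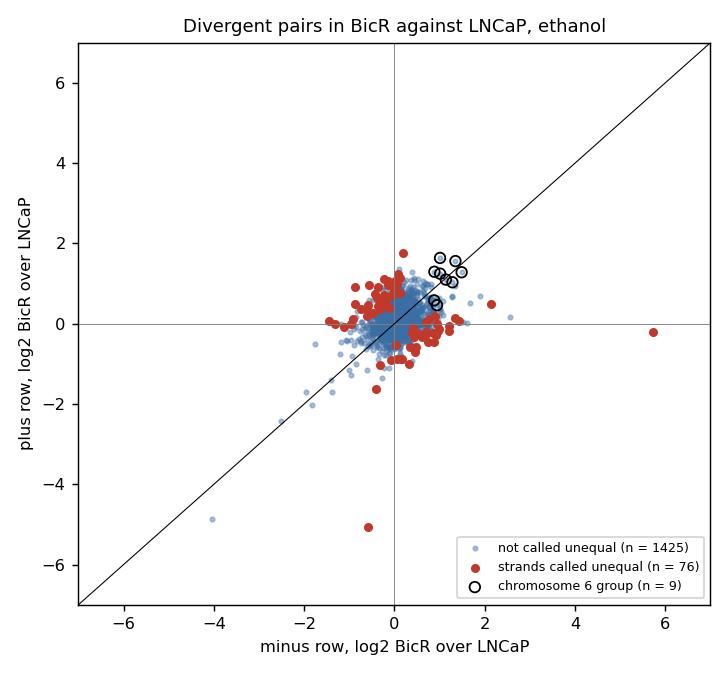
Log2 difference of BicR over LNCaP with ethanol for the minus row (x axis) and plus row (y axis) of 1501 divergent pairs, with 76 pairs called unequal in red and the 9 pairs of the chromosome 6 group circled in black. The circled pairs lie above 0 on both axes, the red point at a minus-row difference of 5.72 is the chromosome 13 pair, and the lone blue point near -4.03 on x and -4.86 on y is a pair with 0 tags in both BicR ethanol libraries, which was not called.

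R1881 gave a separate measure of androgen response in LNCaP. Of the 2931 rows of pairs, 1945 were found by name in the time course table and 1925 passed its filter on low counts. At 48 h against 0 h, 17 of these were called, 11 higher and 6 lower, which is 0.883% beside 1.89% of all 15999 rows (1.39% higher, 0.494% lower). With the replicate number as a block, 135 were called (59 higher, 76 lower), 7.01% beside 8.54% (4.96% higher, 3.58% lower). Of 643 pairs tested for unequal change edgeR and limma called none, beside 0.101% of 995 neighbouring pairs in edgeR, with 48 at an unadjusted p under 0.05 in edgeR. With the block 18 were called, beside 3.02%. At 72 h, 26 rows of pairs were called beside 2.50% of all rows, and 2 pairs were unequal beside 0.503% of neighbouring pairs. Without either replicate of 0 h or of 48 h, 3 or 4 rows were called and no pair was called unequal. R1881 and time in culture cannot be told apart here.

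The rows that DHT moved in BicR mostly had the same sign with R1881. Of the 34 higher rows that could be tested, 31 were above 0 at 48 h, by 1.29 at the median, and of 19 lower rows 16 were below 0, with a median of -1.12. Over all rows called in BicR the counts were 202 of 217 (median 1.61) and 95 of 104 (median -1.25).

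On chromosome 4 the pair at 1205651 (minus) and 1205919 (plus), which split under DHT, also had strands that moved apart at 48 h of R1881. Its plus row had 102 and 89.0 RPM in the replicates at 48 h, against 13.5 and 2.20 RPM at 0 h. Its minus row had 1.53 and 7.80 RPM at 48 h (1 and 29 tags), against 24.5 and 28.7 RPM at 0 h. The stronger strand at 0 h was the weaker one at 48 h in both replicates. The log2 changes were 3.82 for the plus row (SE 1.31, adjusted p = 0.187) and -2.14 for the minus row (SE 0.632, adjusted p = 0.112). With the block they were 4.33 (SE 0.722, adjusted p = 0.00043) and -2.10 (SE 0.529, adjusted p = 0.013). The strands were then called unequal (6.43, SE 1.02, adjusted p = 0.000542), and this was the only divergent pair with rows called in opposite directions. Without the block the difference between the strands, 5.97 (SE 1.73), did not pass (adjusted p = 0.193).

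A second pair of chromosome 4 had 1 row called without the block. The plus row at 41361623 had 125 and 118 RPM at 48 h of R1881, against 7.91 and 20.7 RPM at 0 h (log2 3.09, SE 0.642, adjusted p = 0.0244). The minus row at 41361550, 73 bp away, had 21.4 and 16.4 RPM at 48 h, against 4.75 and 9.37 RPM at 0 h, and it did not pass (log2 1.38, SE 0.674, adjusted p = 0.438). The plus row's call was lost without any 1 of the 4 libraries (adjusted p = 0.103 to 0.258). In BicR DHT raised the same plus row to 60.8 and 111 RPM, against 26.2 and 25.6 RPM with ethanol (log2 1.59, SE 0.341, adjusted p = 0.0245).

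With the block, the largest rise on both strands belonged to a pair on chromosome 10 at 94050834 (minus) and 94050923 (plus). The plus row had 119 and 142.5 RPM at 48 h, against 44.3 and 45.5 RPM at 0 h, and the minus row 39.7 and 26.6 RPM, against 9.49 and 9.64 RPM. The log2 changes were 1.60 (SE 0.412) and 1.76 (SE 0.453), each with an adjusted p of 0.0148. Without the block neither row passed (adjusted p = 0.102 and 0.128). With it the strands were not called unequal, with a difference of -0.16 (SE 0.560, adjusted p = 0.944).

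In the chromosome 6 stretch, the pair at 27114633 (minus) and 27114884 (plus) had the largest excess of the minus row with the block. Its plus row had 9.17 and 33.9 RPM at 48 h, against 182 and 1155 RPM at 0 h. Its minus row had 110 and 170 RPM at 48 h, against 275 and 359 RPM at 0 h. The replicates at 0 h differed widely on the plus strand. With the block the changes were -4.93 for the plus row (SE 0.658, adjusted p = 3.89e-05) and -1.12 for the minus row (SE 0.410, adjusted p = 0.101), a difference of -3.81 (SE 0.779, adjusted p = 0.0033). Without it none of these passed (adjusted p = 0.136, 0.307 and 0.575). The largest fall on both strands with the block, at 27782554 (minus) and 27782799 (plus), had no tag on the plus strand in either library at 48 h, against 5 and 80 tags at 0 h, and 4 and 24 tags on the minus strand, against 38 and 671 tags.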

How the data were processed

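CAGE tags were read in 32 libraries of human prostate cancer cell lines. Per the file headers, each of the deposited tables gives raw tag counts per site and normalized values. The counts as deposited are not normalized. In the deposited RPM values each library's counts are multiplied by 1 factor, and what total that factor stands for is not given in the sources used here. Per the submitters' processing notes the build was hg19. Aligner and cluster caller are not given in the sources used here. No site is tied to a gene, and 0 row names matched the gene table at hand, which is for another build, so gene names, sequences and marker genes were not used here.

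Pairs were built from row names. Tests ran on the counts of the whole tables in R 4.3.3 with edgeR 4.0.16 (TMM, quasi-likelihood F test, Benjamini-Hochberg over all rows, threshold 0.05). filterByExpr, at its minimum of 10 counts, kept 13294 rows of the LNCaP and BicR table and 15999 of 19534 rows of the R1881 table. The fit of the LNCaP and BicR table used 16 treated libraries with a coefficient for each line and treatment and a 24 h term for each line, leaving 6 residual degrees of freedom, and lines were compared at the mean of 6 h and 24 h. The R1881 fit had a coefficient per time and 7 residual degrees of freedom. Unequal change of the strands was tested with diffSpliceDGE, taking each neighbouring pair within 1000 bp as the unit. SE is the size of a log2 change over the square root of F. Alternatives used DESeq2 1.42.0 and limma 3.58.1 on log2 strand ratios with a pseudocount of 0.5 RPM. Scripts were tested on simulated counts for DHT in BicR, with 100 rows changed 2-fold and 100 changed 4-fold. The row test recovered 92 and 100 of these and called 7 unchanged rows. The test of unequal change recovered 79 and 100 pairs and called 19 pairs that held no changed row. Calls of unequal change can thus hold more false ones than the threshold of 0.05 states.

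The labels do not say that libraries came from separate cultures. Same-numbered R1881 libraries deviated together (correlation 0.178 to 0.641 over 9911 sites, 21 of 21 pairs of times above 0.1). Replicate 1 was also the shallower library at every time, with 128463 to 1075743 tags against 1357958 to 3837493 for replicate 2. Whether depth makes them deviate together was not tested, so the correlation does not show that the numbers pair the libraries. Values with the block are given where they change a call or a count. The members, comparisons and lists were chosen with earlier results of these data known. Named pairs are those with the largest shared change each way, the largest unequal change each way and any called in opposite directions, at a mean of 10 RPM in the higher group, plus extremes of level. Pairs added later are marked or belong to the 5 called unequal with DHT.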

Additional observations from a re-analysis of the deposited data

Results flagged for a closer look

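A divergent pair on chromosome 6 at 26250862 (minus) and 26251841 (plus) carried tags almost only in the BicR library of 6 h with DHT plus bicalutamide, which no comparison uses directly. There the minus row had 101.6 RPM (507 tags) and the plus row 34.3 RPM (171 tags). Both BicR ethanol libraries had 0 tags on either strand, which at 3 tags allows up to 0.390 RPM at 6 h and 0.402 RPM at 24 h, counting error only. The highest value in any other library was 8.09 RPM for the minus row and 2.99 RPM for the plus row. These were the only rows of divergent pairs among the 221 rows of the table that stayed below 1 RPM in at least 15 of 18 libraries. The rows lay 979 bp apart, near the limit of the rule.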

How the results depend on the processing

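Counts of calls depended on the fit more than the directions did, and no followed result changed sign while called. Of the counts and medians, 998 pairs remained with both rows at 10 RPM or more, and the median strand ratio stayed between 2.33 and 2.66. For DHT in BicR the rows called were 24 without a time term (beside 1.35% of all rows) and 119 without the BicR library that stood apart (beside 5.72%). Pairs called unequal there were 2 and 9, beside 0.310% and 0.969% of neighbouring pairs, and 9 by limma, beside 0.774%. For DHT in LNCaP 7 rows were called without that library (beside 0.469% of all rows) and 7 by DESeq2 (beside 0.406%). There 1 pair was unequal without that library, without a time term or by limma, beside 0.0775%, 0.0387% and 0.116% of neighbouring pairs. The difference between the DHT responses gave 1 row without that library (beside 0.0151% of all rows) and 2 by DESeq2 (beside 0.0301%). Between the lines 65 rows and 16 unequal pairs were called without a time term, beside 3.48% of all rows and 0.851% of neighbouring pairs. DESeq2 called 150 rows, beside 6.82% of all rows. When the mean of the 4 treatments replaced ethanol, 1334 rows and 577 unequal pairs were called, beside 46.6% and 35.6%. For R1881, 72 h in place of 48 h gave 26 rows and 2 unequal pairs. DESeq2 gave 35 rows at 48 h, beside 2.39% of all rows. The replicate block gave 135 rows and 18 unequal pairs. The block kept the call of the chromosome 6 plus row 10694916 (adjusted p = 1.32e-05) and of the chromosome 4 plus row 41361623 (7.48e-05), and the minus row 41361550 still did not pass (0.131). Leaving out each compared library in turn gave 23 to 45 rows and 0 to 1 unequal pairs for DHT in BicR, 57 to 194 rows and 3 to 33 unequal pairs between the lines, 3 to 4 rows and 0 unequal pairs for R1881, and 0 for the rest. The smaller counts there come with fewer libraries in the fit, and for the other settings the cause was not tested. The correlation of the strands without mitochondrial pairs, an alternative chosen after seeing the data, was 0.45 for DHT in BicR and 0.24 in LNCaP. Depth limits the weak rows: 3 tags correspond to 0.326 to 0.601 RPM in the 18 libraries and to 0.691 to 19.4 RPM in the R1881 libraries, counting error only.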
